A study of Mus musculus with 16 samples.

Results

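The microRNAs (miRNAs) described here are those of the liver: mmu-miR-122-5p, mmu-miR-122-3p, mmu-miR-192-5p, mmu-miR-194-5p and mmu-miR-148a-3p. These 5 names were taken for the tissue they are known from. Values were analysed for 4 of the 5, among 817 mature miRNAs and 15159 non-coding RNAs (ncRNAs) in all, whereas mmu-miR-122-3p was not analysed here. They were measured in extracellular vesicles precipitated from plasma (pEVs) of 8 PS19 mice and 8 wild-type (WT) mice, each library being made from 200 µL of the plasma of 1 mouse. PS19 mice were heterozygous (PS19+/-) for a transgene of human tau with the P301S mutation, driven by the mouse prion promoter and therefore made mainly in neurons, on a B6;C3 background. WT mice were littermates without the transgene, and both groups were about 9.6 months old, with equal numbers of males and females by the study's methods. Which libraries came from males was not given in the labels. Blood was drawn from the heart into EDTA. The precipitate also carries plasma albumin and lipoproteins, so the miRNAs measured here are those of the whole precipitate.

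A miRNA is cut from a hairpin precursor and guides an Argonaute protein to messenger RNAs, mainly through its seed, bases 2 to 8 of the mature strand. miR-122 is made almost entirely in hepatocytes, where it supports cholesterol and lipid metabolism, and it enters plasma when hepatocytes are damaged. miR-192 and miR-194 are made in liver, intestine and kidney under hepatocyte nuclear factors, and miR-148a is abundant in liver but is also made in other tissues, among them pancreas, fat and B cells. Plasma miRNAs travel in vesicles, on lipoproteins and bound to Argonaute, and liver and blood cells are known as large sources of them. In libraries of this kind, fewer vesicles or other carriers and less miRNA in each of them cannot be told apart.

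The mature sequences below are shown because they decide which other entries of these libraries share a target seed with miR-192-5p, miR-194-5p and miR-148a-3p. They are from RefSeq on GRCm38.p6, written 5′ to 3′ with the seed in capitals.
mmu-miR-192-5p: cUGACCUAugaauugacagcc
mmu-miR-215-5p: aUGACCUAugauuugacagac
mmu-miR-194-5p: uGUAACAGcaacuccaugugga
mmu-miR-148a-3p: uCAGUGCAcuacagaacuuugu
mmu-miR-148b-3p: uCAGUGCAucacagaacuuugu
mmu-miR-152-3p: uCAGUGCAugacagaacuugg
Among the 695 mature miRNAs whose names matched a RefSeq sequence, the seed UGACCUA was held by miR-192-5p and miR-215-5p alone. The seed GUAACAG was held by miR-194-5p alone, and the seed CAGUGCA by miR-148a-3p, miR-148b-3p and miR-152-3p. miR-192-5p and miR-215-5p were identical at 18 of 21 positions. miR-148a-3p shared 20 of 22 positions with miR-148b-3p and 18 of the first 21 with miR-152-3p. No other entry had the same values as a liver miRNA in all 16 libraries. How reads that fit several relatives were divided was not given in the sources used here.

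The genes of miR-192 and miR-194 lie in pairs. On GRCm38, Mir192 is at chr19:6264844-6264932 and Mir194-2 at chr19:6264643-6264728, both on the plus strand, 115 bases apart and outside other annotated genes. Mir194-1 at chr1:185313319-185313385 and Mir215 at chr1:185313581-185313692, also on the plus strand, are 195 bases apart. Both lie opposite to an intron of Iars2, a mitochondrial isoleucyl-tRNA synthetase, with Mir194-1 in an intron and Mir215 in an exon of the antisense transcript 2010103J01Rik. The mature miR-194-5p is the same from both copies, so its reads cannot be divided between chromosome 19 and chromosome 1. Mir148a is at chr6:51269812-51269910 on the minus strand, outside other annotated genes.

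From 36220722 to 117583663 reads per library were assigned to ncRNAs, and mature miRNAs took 51467 to 2681285 of them (0.0631% to 7.40%). PS19 replicates 1, 3 and 4 had the fewest, with 69476, 159397 and 51467, whereas all WT libraries had 335410 or more. The liver miRNAs are given on a pair of scales. A normalized count is the read count divided by the size factor of the library, as deposited, and a share is the percent of the library's mature miRNA reads. All 8 PS19 library names begin with the letter G, whereas 2 WT names (replicates 2 and 4) begin with G, 4 with F and 2 with A. The meaning of the letter was not given in the labels, and it can be separated from the genotype only through those 2 WT libraries.

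The 4 liver miRNAs together took between 19.3% (WT replicate 4) and 60.9% (WT replicate 1) of the mature miRNA reads. The median was 37.9% in PS19 and 43.8% in WT. miR-148a-3p was the most abundant mature miRNA of all by its median share, miR-122-5p the third, miR-192-5p number 13 and miR-194-5p number 81. miR-148a-3p had the most reads of the 4 in 14 of 16 libraries. In PS19 replicate 4 and WT replicate 8, miR-122-5p had more, so the levels of these 2 miRNAs overlapped. miR-122-5p was above miR-192-5p, and miR-192-5p above miR-194-5p, in all 16 libraries. Such an order holds for reads, since ligation of adapters favours some small RNAs over others.

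**Figure D1:**
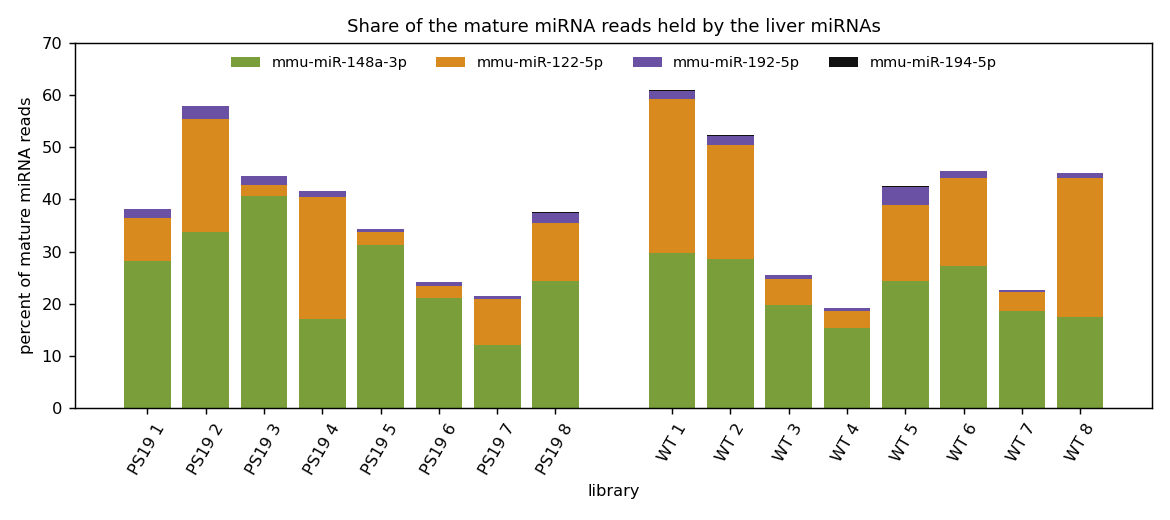
Stacked bars give the percent of mature miRNA reads (vertical axis) taken by each liver miRNA in each of the 16 libraries (horizontal axis, 1 bar per mouse). The height runs from 19.3% in WT replicate 4 to 60.9% in WT replicate 1, and the orange part of miR-122-5p runs from 2.12% to 29.4%.

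miR-148a-3p had 3265443 reads in all. Its share was lowest at 12.2%, with a median of 26.3% and a highest value of 40.6%, in PS19, and 15.4%, 22.1% and 29.8% in WT. The highest share was 3.34 times the lowest, the narrowest range of the 4 liver miRNAs. miR-122-5p had 1888413 reads, with a lowest share of 2.12%, a median of 8.48% and a highest of 23.4% in PS19. In WT these were 3.13%, 15.6% and 29.4%, so the highest share over all libraries was 13.8 times the lowest. Libraries of both genotypes lay at both ends of the range of miR-122-5p: PS19 replicates 3, 5 and 6 and WT replicates 3, 4 and 7 were all under 5%, and PS19 replicates 2 and 4 and WT replicates 1, 2 and 8 were all over 20%.

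miR-192-5p had 223032 reads, and its share ran from 0.582% to 2.55% in PS19, with a median of 1.42%, and from 0.340% to 3.53% in WT, with a median of 1.17%. miR-194-5p was rare, with 6581 reads in all. Its share ran from 0.0139% to 0.107% in PS19 (median 0.0524%) and from 0.0171% to 0.136% in WT (median 0.0295%). In PS19 replicate 4 it rested on 30 reads, a share of 0.0583% with an exact (Clopper-Pearson) 95% binomial interval of 0.0393% to 0.0832%. In WT replicate 5, with 2541 reads, the interval was 0.130% to 0.141%. Such intervals cover counting error only, because amplified reads are not separate molecules.

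PS19 was next compared to WT, to ask whether the liver miRNAs of plasma differ in mice with tau pathology. The normalized count of miR-122-5p was 2.97-fold higher in WT than in PS19 as a ratio of means on the log scale, and miR-122-5p was the single liver miRNA with a raw p under 0.05. miR-192-5p, miR-194-5p and miR-148a-3p had lower means in PS19 but did not pass. No liver miRNA passed after adjustment over all ncRNAs, and the values of PS19 and WT overlapped for all 4. The difference of miR-122-5p did not pass the exact permutation test either.

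The normalized count of miR-122-5p was lowest at 4644, with a median of 24294 and a highest value of 189147, in PS19, and 22364, 89927 and 365051 in WT. PS19 replicate 2 was above 6 of the 8 WT libraries, and WT replicates 3, 4 and 7 were near the PS19 median. Of the WT libraries, 6 of 8 were above the PS19 median. The log2 fold change of PS19 over WT was -1.57 ± 0.72 (SE, n = 8 and 8), with a limma raw p = 0.0387 and a two-sided exact permutation p = 0.0805. The limma p after Benjamini-Hochberg adjustment was 0.829, as for the other 3.

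This call was 1 of 4 liver miRNAs, read against 2.13% of all 15159 ncRNAs and 5.51% of the 817 mature miRNAs that were lower in PS19 at a raw limma p under 0.05. By the permutation test 0 of the 4 passed, beside 4.16% of mature miRNAs that were lower. The call rested on single libraries: the raw p rose over 0.05 when any of PS19 replicates 1, 3, 5 and 6 or WT replicates 1, 2, 5 and 8 was left out, with log2 fold changes from -1.98 to -1.22 over all 16 such fits. Without PS19 replicates 1, 3 and 4, those with under 200000 mature miRNA reads, the log2 fold change was -0.92 with a 95% interval of -2.43 to 0.58, and 0 of the 4 passed.

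The normalized count of miR-148a-3p was lowest at 28811, with a median of 104507 and a highest of 295635, in PS19, and 83475, 123292 and 369896 in WT. Its log2 fold change was -0.74 ± 0.56 (SE; limma raw p = 0.199, exact permutation p = 0.177). PS19 replicates 1, 4 and 7 were below every WT library, whereas the other 5 were within the WT range. For miR-192-5p the lowest, median and highest values were 1708, 3670 and 22350 in PS19 and 2277, 5475 and 25667 in WT. Here the log2 fold change was -0.81 ± 0.61 (limma raw p = 0.194, exact permutation p = 0.234). PS19 replicates 2 and 8 and WT replicates 1, 2 and 5 had 14098 or more, whereas the other 11 had 6095 or fewer. miR-194-5p ran from 81.9 to 509 in PS19 (median 122) and from 93.7 to 988 in WT (median 172), with a log2 fold change of -0.60 ± 0.55 (limma raw p = 0.284, exact permutation p = 0.292). The same 5 libraries were highest.

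**Figure D2:**
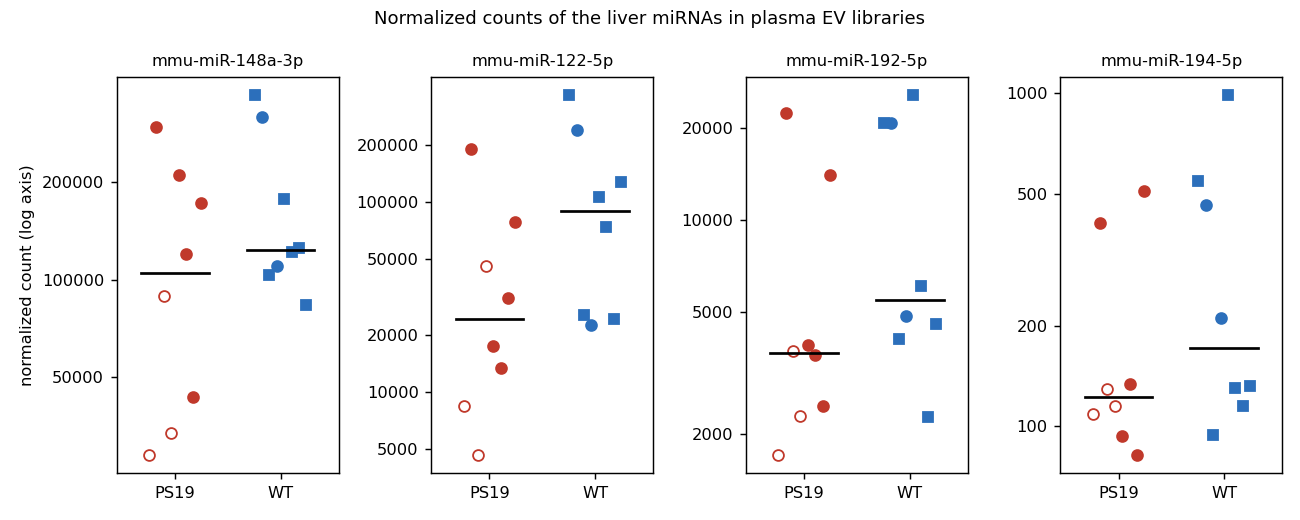
Each point is 1 library, with the normalized count on a log axis and the genotype on the horizontal axis. Black lines are medians, circles are libraries with names in G, squares are those in F or A, and open symbols are PS19 replicates 1, 3 and 4. The genotypes overlap in all 4 panels, and for miR-122-5p the median is 24294 in PS19 and 89927 in WT.

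On the deposited scale most abundant miRNAs were lower in PS19, and the direction of 3 of the 4 liver miRNAs depended on what the libraries were scaled to. Of the 219 mature miRNAs whose normalized counts averaged at least 10, 203 had a log2 fold change below 0, with a median of -0.64. Relative to that median, miR-122-5p differed by -0.93, miR-192-5p by -0.16, miR-148a-3p by -0.10 and miR-194-5p by 0.04. Other scales were set beside the deposited one. Relative to the mature miRNA reads of the library, the log2 fold change of PS19 over WT was -0.68 for miR-122-5p, with a 95% interval of -2.01 to 0.65. On that scale miR-192-5p, miR-148a-3p and miR-194-5p were at 0.086, 0.15 and 0.29, and 0 of the 4 had a raw p under 0.05. That scaling moved the median log2 fold change of all ncRNAs from -0.01 to 0.32. With size factors from miRNAs alone the median was 0.18, and miR-122-5p was at -0.98 (95% interval -2.39 to 0.43). With library totals the median was -0.11, and miR-122-5p was at -1.84 (95% interval -3.58 to -0.11). miR-122-5p was thus lower in PS19 on each of these scales, and passed a raw p of 0.05 on the deposited one and with library totals.

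With the log2 mature miRNA share of the library as a covariate, the log2 fold change of miR-122-5p was -0.97 (95% interval -2.27 to 0.33) and those of the other 3 were between -0.13 and -0.09. Within the libraries whose names begin with G (8 PS19, 2 WT), miR-122-5p was at -1.51, with a 95% interval of -3.97 to 0.96. The other 3 were also lower in PS19 there, down to -1.17 for miR-192-5p, with intervals that include 0. The 2 WT libraries of that letter had 239186 and 22364 normalized counts of miR-122-5p, which spans most of the WT range. Over all ncRNAs, limma gave 735 with a raw p under 0.05, 412 higher and 323 lower in PS19, and 0 after adjustment, whereas DESeq2 gave 47 and edgeR 318 with an adjusted p under 0.05. The split of the raw calls moved with the scale, to 145 higher and 296 lower with library totals, 766 and 128 with factors from miRNAs alone, and 998 and 110 relative to mature miRNA reads. It was 139 and 505 within the libraries named with G and 340 and 414 with the covariate. DESeq2 gave 581 and 241, and edgeR 1195 and 1100. With edgeR on the recovered reads miR-122-5p was at -1.48, with a raw p under 0.05, and with DESeq2 at -1.34, without one.

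**Figure D3:**
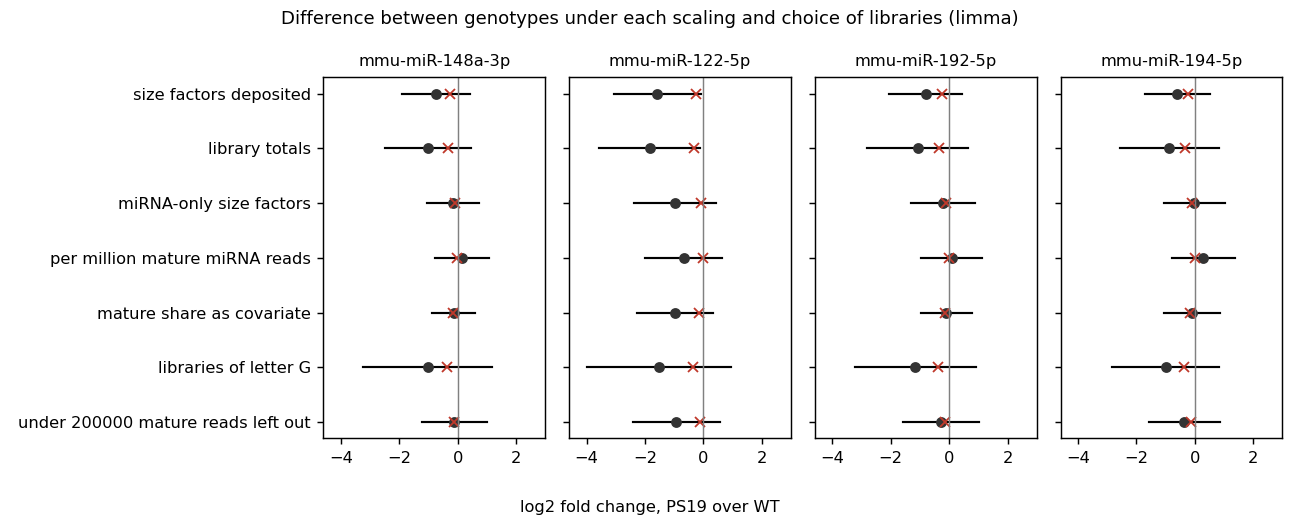
Points are the limma log2 fold changes of PS19 over WT (horizontal axis, below 0 is lower in PS19) with 95% intervals, for each liver miRNA under 7 scalings or choices of libraries, and red crosses are the median of the mature miRNAs under the same choice. The interval of miR-122-5p leaves out 0 with the deposited size factors and with library totals, and those of the other 3 miRNAs include 0 throughout.

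The ratio of 2 miRNAs in a library does not depend on its scaling, so 6 ratios were compared between the genotypes by a two-sided exact permutation test. None differed with p under 0.05. The ratio of miR-122-5p to miR-194-5p was the nearest, with a geometric mean of 165 in PS19 and 323 in WT (exact permutation p = 0.142, adjusted over the 6 ratios 0.524). miR-122-5p over miR-192-5p was 5.76 in PS19 and 9.79 in WT (exact permutation p = 0.182), and miR-122-5p over miR-148a-3p was 0.282 and 0.501 (exact permutation p = 0.262). As a check against a red cell miRNA, miR-122-5p over miR-451a was 19.1 in PS19 and 35.7 in WT, over a range of 3.13 to 302 (exact permutation p = 0.388). Among the libraries named with G this difference turned sign, to 0.50 on the log2 scale. miR-451a was the single red cell miRNA set against the liver miRNAs, here and in the relations below. The more abundant red cell miRNA miR-486a-5p had a log2 fold change of -1.41, nearer the -1.57 of miR-122-5p than the -0.67 of miR-451a. The ratio of miR-192-5p to miR-194-5p had the narrowest range, from 15.6 to 54.9 with a median of 29.4, and was 28.6 in PS19 and 33.0 in WT (exact permutation p = 0.437). miR-192-5p over miR-148a-3p was 0.0490 and 0.0512 (exact permutation p = 0.877).

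From mouse to mouse, the clustered pair of miR-192-5p and miR-194-5p rose and fell together. Their shares, on the log2 scale, had Pearson's r = 0.846 and Spearman's rho = 0.835 over 16 libraries (permutation p = 4e-05 and 7e-05; adjusted over 10 relations, 0.0004 and 0.0007). Without WT replicates 5 and 7, the libraries farthest from the median of miR-192-5p, r was 0.780. It was 0.823 within PS19, 0.888 within WT and 0.793 in the 10 libraries named with G. With normalized counts r was 0.925. The mouse with the highest miR-192-5p and miR-194-5p was WT replicate 5, with 3.53% and 0.136% of mature miRNA reads.

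In shares, the other pairs of liver miRNAs had lower r. miR-122-5p with miR-192-5p had r = 0.574 and rho = 0.476 (permutation p = 0.0202 and 0.0633, adjusted 0.0674 and 0.158), and without PS19 replicates 3 and 6 r was 0.685. miR-192-5p with miR-148a-3p had r = 0.551 and rho = 0.497 (permutation p = 0.0273 and 0.0533, adjusted 0.0681 and 0.158), and 0.617 without WT replicates 5 and 7. With normalized counts these pairs had r = 0.781 and r = 0.823. miR-122-5p with miR-194-5p had r = 0.398 and rho = 0.285 (permutation p = 0.127 and 0.282, adjusted 0.253 and 0.402), and r = 0.50 without PS19 replicates 3 and 6. miR-194-5p with miR-148a-3p had r = 0.333 and rho = 0.297 (permutation p = 0.206 and 0.262, adjusted 0.294 and 0.402), and r = 0.336 without PS19 replicate 1 and WT replicate 5. The shares of miR-122-5p and miR-148a-3p had r = 0.005 and rho = -0.038 (permutation p = 0.984 and 0.891), and r = 0.232 without PS19 replicates 3 and 6. Within the genotypes the sign differed, with r = -0.333 in PS19 and 0.689 in WT (exact permutation p = 0.423 and 0.0793). With normalized counts the same pair had r = 0.598 (permutation p = 0.0140), on a scale where the depth of miRNA in each library is shared by both.

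miR-451a, a miRNA of red blood cells that is made without Dicer, went opposite to miR-122-5p in shares. Over 16 libraries r was -0.721 and rho -0.744 (permutation p = 0.0011 and 0.0015, adjusted 0.0056 and 0.0073), and r was -0.774 without PS19 replicates 3 and 6. Within WT r was -0.879 (exact permutation p = 0.0048), within PS19 -0.558 (exact permutation p = 0.148), and in the libraries named with G -0.541. For the other liver miRNAs with miR-451a, in shares, r was nearer 0, at r = -0.354 for miR-192-5p, -0.175 for miR-194-5p and -0.125 for miR-148a-3p (permutation p = 0.180, 0.515 and 0.646). Their rho was -0.426, -0.238 and -0.059 (permutation p = 0.101, 0.373 and 0.830), and after adjustment over the 10 relations no p of these 3 was under 0.202. Without the 2 libraries farthest from the median of each, r was -0.315, -0.362 and -0.231. Within the genotypes, r of miR-148a-3p with miR-451a was 0.474 in PS19 and -0.635 in WT (exact permutation p = 0.237 and 0.0927). For miR-192-5p and miR-194-5p it was below 0 in both genotypes. On normalized counts the relation of miR-122-5p was gone, with r = 0.111 (permutation p = 0.681). Shares add up to a fixed total, of which miR-122-5p alone took up to 29.4%, and the part of that in the relation was not tested.

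**Figure D4:**
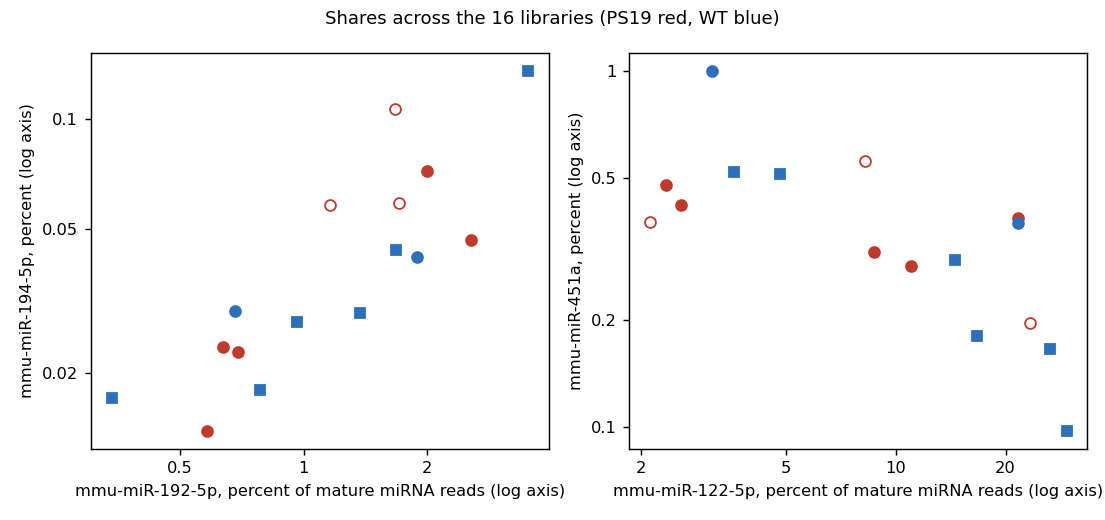
Each point is 1 library, with its share of mature miRNA reads on log axes for miR-192-5p and miR-194-5p (left) and for miR-122-5p and miR-451a (right). PS19 is red and WT blue, circles are libraries named with G, and open symbols are PS19 replicates 1, 3 and 4. The left points rise together (r = 0.846), and the right ones fall (r = -0.721), a relation that was gone on normalized counts (r = 0.111).

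Of 218 other mature miRNAs whose normalized counts averaged at least 10, those whose shares ran most like each liver miRNA were ranked by rho over the 16 libraries. For miR-192-5p they were miR-200a-3p (rho = 0.853), miR-194-5p (0.835) and miR-200a-5p (0.709), and for miR-194-5p they were miR-192-5p, miR-200a-3p (0.738) and miR-200c-3p (0.659). The miR-200 family is known from epithelia. For miR-148a-3p they were miR-223-5p (0.735), miR-184-3p (0.724) and miR-205-5p (0.715). For miR-122-5p no miRNA went beyond miR-145a-3p (0.553), miR-335-3p (0.544) and miR-296-3p (0.50). These ranks are a description, since all miRNAs of a library share its depth and its total.

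Of the reads of miR-192, miR-194 and miR-148a that were assigned to an arm of the hairpin, nearly all were from 1 arm. miR-192-3p had 3 reads, all in PS19 replicate 3, beside 223032 of miR-192-5p. miR-148a-5p had 162 reads in 11 libraries, miR-194-1-3p 119 in 9, of which 87 were in WT replicate 5, and miR-194-2-3p 27 in 6, and their log2 fold changes were 0.21, 0.22 and -0.60 (exact permutation p = 0.802, 0.803 and 0.282). The entry of the whole hairpin mmu-mir-192 stood apart, with 33.6 reads per 100 of miR-192-5p and 28.9 to 45.1 per library, in both genotypes. Its log2 fold change was -0.84 (exact permutation p = 0.204). For mmu-mir-122 there were 0.222 reads per 100 of miR-122-5p (4188 in all), with a log2 fold change of -1.69 ± 0.68 (SE; limma raw p = 0.0198, adjusted p = 0.829, exact permutation p = 0.0521). This was the second entry of the miR-122 gene with a raw p under 0.05, and not a separate measurement, since its reads come from the same transcript. The hairpins mmu-mir-148a, mmu-mir-194-1 and mmu-mir-194-2 had 37, 15 and 29 reads.

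Among the seed relatives, miR-215-5p had a median share of 1.38%, beside 1.27% for miR-192-5p. WT replicate 5 held 201639 of its 405770 reads. It varied more, from 0.208% to 10.8% of mature miRNA reads. Its log2 fold change was -0.93 (exact permutation p = 0.298). miR-148b-3p and miR-152-3p had 5195 and 4707 reads, far below miR-148a-3p, and log2 fold changes of -0.62 and -0.47 (exact permutation p = 0.186 and 0.0967). By limma, 0 of the 3 had a raw p under 0.05.

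Other miRNAs that are abundant in hepatocytes, most of which are made elsewhere too, had no call. Of 12 listed, 11 were present and 0 passed a limma raw p of 0.05. A log2 fold change below 0 was found for 10 of the 11, beside 203 of the 219 mature miRNAs above, with a median of -0.47 beside -0.64. The 219 averaged at least 10 normalized counts, whereas the 11 were not filtered and the rarest had 1 read in all. Of all 817 mature miRNAs, 597 were below 0, with a median of -0.25. Summed as shares they took a median of 2.07% in PS19 and 1.52% in WT, so the order of the genotypes turned with the scale. The most abundant was miR-21a-5p, at a median share of 0.494% and a log2 fold change of -0.32 (exact permutation p = 0.424).

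Markers of other sources were given the same test. Of 8 red blood cell miRNAs, 3 fell in PS19 at a limma raw p under 0.05: miR-486a-5p (log2 fold change -1.41), miR-486b-5p (-1.42) and miR-363-3p (-1.42). None passed the exact permutation test (p = 0.0791, 0.0785 and 0.0536). The 2 miR-486 entries had similar reads (736300 and 751444) and log2 fold changes, and are not taken as separate signals. miR-363-3p was near the floor, with 69 reads in 9 libraries and a median share of 0 in PS19. No adjusted p was under 0.829. The share of mature miRNAs called lower was 5.51%. Of the 8, 7 had a log2 fold change below 0, with a median of -0.81. Summed, the 8 took 2.09% to 18.5% of mature miRNA reads in PS19 (median 10.4%) and 6.93% to 20.5% in WT (median 12.3%), and their part in the miR-122-5p result was not tested. Of 5 muscle miRNAs, 3 had a log2 fold change below 0, and their median was -0.02. By limma 1 of the 5 was higher in PS19 at a raw p under 0.05, beside 0.734% of mature miRNAs: miR-206-3p, made in skeletal muscle, with a log2 fold change of 1.79 (limma raw p = 0.0361, exact permutation p = 0.0903). The most abundant, miR-1a-3p of heart and skeletal muscle, was at -0.02 (exact permutation p = 0.979). The 5 summed to 0.603% to 15.6% of mature miRNA reads in PS19 (median 3.80%) and 0.512% to 9.02% in WT (median 1.12%), and their part in the liver miRNA results was not tested.

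No other list had a call. Of 9 intestine and pancreas miRNAs, 8 were below 0 on the deposited scale, with a median log2 fold change of -0.80, and the most abundant was miR-215-5p. That median was the value of a miRNA with 34 reads in 7 libraries, and the rarest of the 9 had 8 reads in 3. Summed, the 9 had a median share of 1.96% in PS19 and 1.47% in WT, the opposite order. Of 6 platelet and leukocyte miRNAs, 4 were below 0 (median -0.13), led by miR-146a-5p at a median share of 0.611%. Summed, their median share was 0.784% in PS19 and 0.503% in WT. All 5 neuron miRNAs were below 0 (median -0.46), and the most abundant was miR-128-3p at 0.433%. Summed, the neuron miRNAs had a median share of 0.553% in PS19 and 0.510% in WT, against 37.9% and 43.8% for the 4 liver miRNAs.

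**Figure D5:**
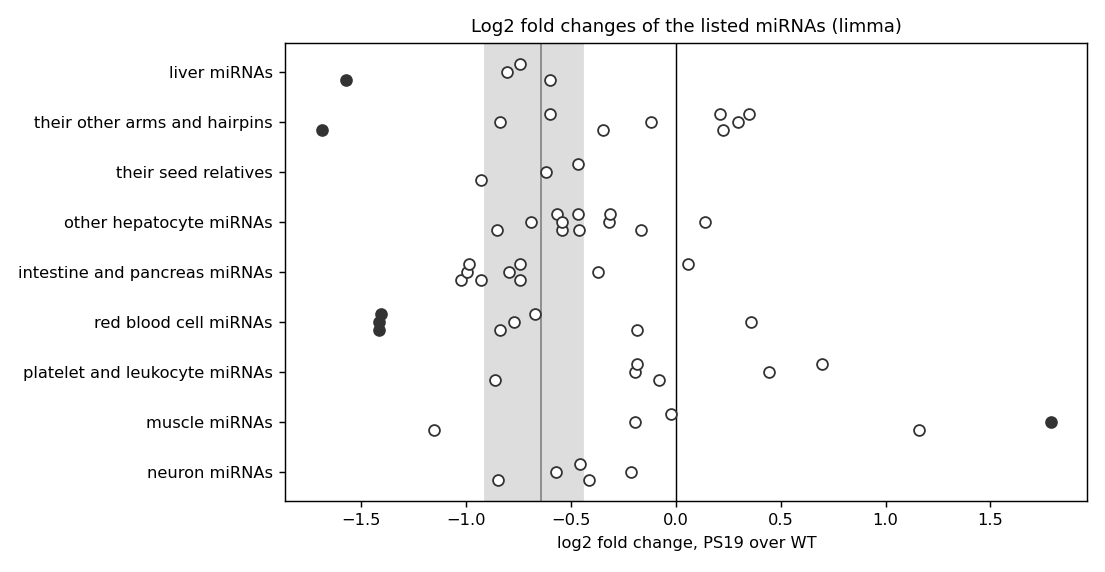
Each point is the limma log2 fold change of PS19 over WT (horizontal axis) of 1 listed miRNA, in rows by list, filled where the raw p was under 0.05. The grey band runs from the lower to the upper quartile (-0.91 to -0.45) of the 219 mature miRNAs whose normalized counts averaged at least 10, with a line at their median of -0.64. Filled points are miR-122-5p, its hairpin, 3 red cell miRNAs and, to the right, miR-206-3p.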

How the data were processed

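Small RNA libraries of pEVs from 8 PS19 and 8 WT mice were analysed, 1 per mouse. The authors aligned single-end reads with STAR 2.5.3a, assigned them to ncRNAs with COMPSRA and fitted DESeq2 1.42.1. The signal values deposited for each library are counts divided by its DESeq2 size factor, and the mean signal over libraries is deposited beside them. The authors also deposited log2 fold changes with their standard errors, the Wald score and raw and adjusted p-values, none of which was used. The build named in the submitters' processing notes is mm10, to which GRCm38.p6 corresponds.

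Whole reads were recovered by dividing by the smallest value above 0 of each library, and 100.0% of values were whole within 1e-06. log2(normalized count + 1) was fitted with limma 3.58.1 (lmFit, eBayes with trend) over all 15159 ncRNAs, with Benjamini-Hochberg adjustment over all of them and, beside it, exact permutation tests of 8 against 8. The model is on the log scale since the values are normalized ones, and a raw p of 0.05 is the threshold of the study. Ratios used reads + 0.5. Relations used 100000 resamples, or exact permutation within a genotype. Reads and sequences were matched by full name. The alternatives were DESeq2 1.42.0 and edgeR 4.0.16 on the recovered reads, other scalings, filters, pseudocounts and weights, a replicate block, a covariate, libraries of the letter G and each library left out. R 4.3.3, Python 3.11.15, numpy 2.4.6, pandas 2.3.3, scipy 1.17.1 and matplotlib 3.10.9 were used, and the tests were tested on simulated data.

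The named miRNAs were the 5 liver miRNAs, their other arms, hairpins and seed relatives. To these were added the most abundant and any called miRNA of each source list and the 3 miRNAs most like each liver miRNA. The liver miRNAs and the lists were chosen with earlier results of these data known. Replicates are separate mice, the replicate numbers of the 2 genotypes belong to different mice, and p-values measure the spread between these mice. mmu-miR-122-3p, and with it 1 ratio and 5 relations, was not analysed here.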

Additional observations from a re-analysis of the deposited data

Results flagged for a closer look

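In 28 groups of 8 values (each genotype, for the normalized counts, shares and ratios of the liver miRNAs), 1 value stood far from the others by Dixon's criterion. The share of miR-194-5p in WT replicate 5, 0.136% of mature miRNA reads, lay above the next WT library by 0.547 of the range of the 8 WT libraries on the log2 scale, beyond the critical value of 0.526. Chance gives such a value in about 1 in 20 groups. The same library had the highest share of miR-192-5p, 3.53%, and the most mature miRNAs with a read, 506. From the pair on chromosome 1, it had the highest share of miR-215-5p, 10.8%, and 87 of the 119 reads of miR-194-1-3p. By mature miRNA reads it was second among WT, with 1872889.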

How the results depend on the processing

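The difference of miR-122-5p kept its direction in all fits. It passed a raw p of 0.05 with edgeR, library totals, both filters on low values, a pseudocount of 0.1 and the block. The log2 fold change was -1.34 with DESeq2, -0.68 relative to mature miRNA reads, -0.98 with miRNA-only size factors, -1.57 with a pseudocount of 10, -1.25 with array weights, -1.51 in the libraries named with G, -0.97 with the mature share as covariate and -0.92 without libraries under 200000 mature miRNA reads (chosen after seeing the data), all with a raw p over 0.05, so that 0 of 4 liver miRNAs was called. With each library left out it ran from -1.98 to -1.22, and 0 to 1 was called. Relative to mature miRNA reads, miR-192-5p, miR-194-5p and miR-148a-3p turned to 0.086, 0.29 and 0.15. The cause was not tested. Over all ncRNAs, 735 raw calls became 2295 with edgeR, 441 with library totals, 1108 relative to mature miRNA reads and 230 with a mean of at least 10, where fewer ncRNAs were tested, and 567 to 846 with each library left out. miR-192-5p over miR-148a-3p ran from -0.28 to 0.15 (log2) with each library left out, and miR-122-5p over miR-451a was 0.50 with the letter G.

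On normalized counts in place of shares (chosen after seeing the data), r rose to 0.683 for miR-122-5p with miR-194-5p, 0.598 with miR-148a-3p and 0.668 for miR-194-5p with miR-148a-3p. It turned to 0.111, 0.366, 0.312 and 0.621 for miR-451a with miR-122-5p, miR-192-5p, miR-194-5p and miR-148a-3p.

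With a replicate block, the log2 fold change of miR-122-5p was -1.57 with a 95% interval of -2.88 to -0.27, the calls of the 4 liver miRNAs did not change, and 685 ncRNAs had a raw p under 0.05. Same-numbered libraries correlated between -0.173 and 0.525 over 219 mature miRNAs, and 1 of 8 numbers matched its own best, so the numbers did not pair the mice. Fits with mmu-miR-122-3p were not run. Depth limits miR-194-5p most, with 30 reads in its shallowest library.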

Other observations

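The read counts of 2 circRNA entries ran with those of miR-148a-3p over the 16 libraries, mmu_circ_0015929 (8536 reads, r = 0.993) and mmu_circ_0004534 (3826 reads, r = 0.995). They amounted to 0.261 and 0.117 reads per 100 of miR-148a-3p. Among entries with at least 200 reads, these and the hairpin mmu-mir-192 with miR-192-5p (r = 0.995) were those with r above 0.99. Raw reads share the depth of the library, and r is given as a description.

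The make-up of the liver miRNA reads differed from mouse to mouse. miR-122-5p took from 4.77% of the reads of the 4 liver miRNAs in PS19 replicate 3 to 58.9% in WT replicate 8, and miR-148a-3p took 91.3% and 38.9% in those libraries. miR-192-5p and miR-194-5p together took from 1.57% in WT replicate 7 to 8.60% in WT replicate 5.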
